A study of Homo sapiens with 12 samples.

Results

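The LR cells of month 9, labelled Resistant, were compared with the DTP cells (drug-tolerant persisters) of day 9. Both groups were labelled as BT474 cells, an established HER2-positive breast cancer line, as wild type and as treated with lapatinib, 1 µM. Lapatinib blocks the kinase activity of HER2 and of EGFR. The drug was therefore shared and the time in it was not, so time in culture and the resistant state cannot be told apart. The contrast sets proliferating cells against arrested cells in the same drug. Each group had 3 of the 12 libraries of the series, which also holds Control (day 0) and DTEP libraries (drug-tolerant expanded persisters, month 6). The Control libraries carry the same treatment label and were read as untreated from their titles. Control and DTEP values are given beside some genes, with no test. The study calls its libraries technical replicates, while a figure legend takes them from 3 parallel plates. It also calls the LR cells clones. Therefore n counts libraries, and SDs and p-values cover only the spread between these libraries.

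All genes with a normalised read count of at least 1 in at least 3 of the 6 libraries were taken, which gave 13318 of the 26485 genes in the table. A normalised read count is a read count as a share of its library, multiplied by a scaling factor of the authors that makes the libraries comparable. A log2 change is the difference of the group means of log2(value + 1), LR minus DTP. For genes with low values it comes out smaller than the change itself. A gene was called where its change was more than 2 on the log2 scale, either way, and its adjusted p was under 0.05 (limma, 3 against 3 libraries).

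Cells that outlive a kinase inhibitor without dividing are called persisters, and resistant cells divide in the drug. Entry into division is held back by the retinoblastoma family of pocket proteins and by inhibitors of the cyclin-dependent kinases. E2F factors then switch on the genes of DNA replication, and the MuvB complex with MYBL2 and FOXM1 switches on those of mitosis. HER2, the product of ERBB2, signals with ERBB3 through the ERK and PI3K pathways, and the amount of ERK signalling can be read from inhibitors that ERK induces itself, such as the DUSP phosphatases, Sprouty and SPRED proteins.

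The 6 libraries held 16383363 to 24545527 assigned reads, so a gene without a read was below 0.127 to 0.173 normalised read counts. That limit, the value of 3 reads, covers counting error only. Genes are not independent replicates, and Pearson's r across them is given as a description: 0.982 to 0.996 within DTP, 0.970 to 0.984 within LR and 0.683 to 0.734 between the groups. Between libraries of a group the typical gene had an SD of 0.17 (DTP) or 0.20 (LR) in log2 units. No pair of libraries of a group was as alike as sampling noise allows. The LR libraries differed among themselves in the cell cycle and interferon genes described below.

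The label BT474 was checked against 11 markers of luminal HER2-positive epithelium, of which 6 were called lower in LR (54.55%, against 8.72% of all genes tested). ESR1, the estrogen receptor, stood at 93.5, 100.5 and 122 in DTP replicates 1, 2 and 3 and at 0.211, 0.0553 and 0.194 in the LR replicates, in which it was close to the limit of detection. ESR1 thus passed the filter through the DTP libraries alone and had to be lower. PGR, the progesterone receptor, went from 740, 858 and 1130 to 3.00, 0.332 and 4.02. ERBB2 was lower but remained high, at 9136, 8583 and 7917 in DTP and 1555, 1897 and 1870 in LR. FOXA1 and GATA3, the pioneer and lineage factors of luminal cells, were higher in LR past the adjusted p but not called (log2 changes of 1.51 and 1.42). Keratins KRT8 and KRT18 and the adhesion molecule EPCAM were well above the detection limit in all 6 libraries. KRT8 was among the 6 called lower (log2 change -2.12, and -1.93 without LR replicate 3), as were GRB7 and CDH1. Past the adjusted p 8 of the 11 markers were lower and 3 higher. All 4 tested luminal keratins were lower past it. Of 16 markers of other cell types, 3 could be tested and 0 were called, against 1161 genes called lower overall and 1302 higher. Those 3, COL1A1, VWF and CD68, all passed the adjusted p alone (limma). TEK, CD3E and HBB had no read in the 6 libraries. The summed fibroblast markers, mostly COL1A1, were at 98.5 to 130 in LR and 48.4 to 59.3 in DTP, the endothelial ones at 0.127 to 0.332 and 2.19 to 2.61, and the blood ones at 0.872 to 1.33 and 2.30 to 2.53. Sequence variants were not analysed here, so the identity of the line in each library was not tested. A difference between lines and a difference between the states of 1 line therefore cannot be told apart in any LR minus DTP value given here.

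Of the genes tested, 1302 were called higher in LR (9.78%) and 1161 lower (8.72%). The adjusted p alone was passed by 4991 higher (37.5%) and 4806 lower genes (36.1%). Changes ran from -10.62 to 10.18 on the log2 scale, with 192 called genes above 4 and 286 below -4, while the median of all genes tested was 0.0149. In 1301 of the genes called higher and in all 1161 called lower the groups did not overlap, as was so for 76.8% of all genes tested. Among the genes tested, 513 passed the filter through LR alone, of which 276 were called higher, and 1118 through DTP alone, of which 603 were called lower. Those had to differ in that direction and carry no weight as a count. In bulk libraries a smaller number of cells that express a gene and less RNA of it per cell cannot be told apart.

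**Figure D1:**
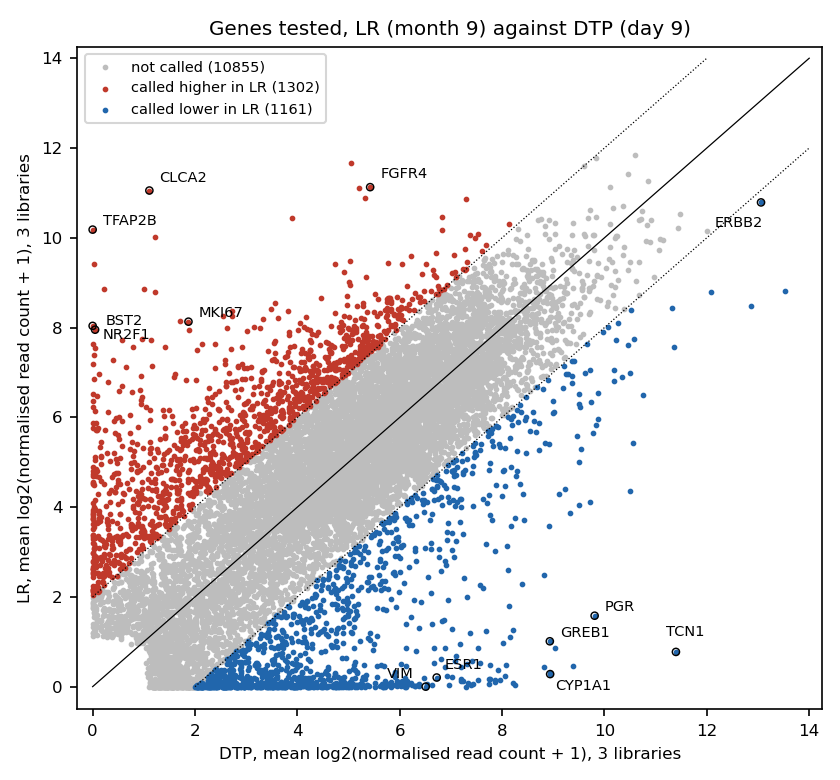
Mean log2(normalised read count + 1) of every gene tested, with DTP on the horizontal and LR on the vertical axis (3 libraries each). Red points are the 1302 genes called higher in LR and blue points the 1161 called lower. The dotted lines mark a log2 change of 2 either way, and genes along each axis have almost no reads in the other group.

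Many of the largest differences were between no reads and a high level. TFAP2B (Entrez 7021, chromosome 6, 50818355 to 50847619 on GRCh38.p14), a transcription factor of the AP-2 family, had 0 reads in every DTP library and 1248, 1119 and 1119 normalised read counts in the LR libraries, at least 6727-fold higher (limma adjusted p 1.36e-08). NR2F1 (Entrez 7025, chromosome 5, 93583222 to 93594611), an orphan nuclear receptor, also had no DTP read and 218, 262 and 313 in LR. SLFN13, a nuclease of the Schlafen family, went from no read to 225, 105 and 322. The chloride channel regulator CLCA2 went from 1.36, 0.592 and 1.67 to 2141, 1697 and 2634, a 1788-fold difference of the means. KCNMA1, a potassium channel, AZGP1, a secreted glycoprotein of apocrine cells, the lipid transporter ABCA12 and the transcription factor BHLHE40 rose by log2 changes of 8.79, 8.63, 7.85 and 7.58. BST2, the antiviral protein tetherin, is described with the interferon genes, and of the 10 largest changes 1 is not reported here.

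At the other end TCN1 (Entrez 6947, chromosome 11, 59852808 to 59866487), which encodes the vitamin B12 binding protein haptocorrin, fell from 2612, 2848 and 2629 in the DTP libraries to 0.591, 0.332 and 1.36 in the LR libraries, a 3548-fold difference. Small heat shock protein HSPB8 fell from 666, 688 and 647 to 0.634, 0.166 and 0.388. CYP1A1 (Entrez 1543, chromosome 15, 74719542 to 74725528), the cytochrome induced by the aryl hydrocarbon receptor, fell from 504, 463 and 503 to 0.0845, 0.111 and 0.484. The kinesin KIF1A, the lipid flippase ATP9A, the exchange factor PLEKHG4B, the reductase DHRS2 and the sulfatase ARSD fell by 8.63, 8.36, 8.21, 8.17 and 8.12 on the log2 scale, and the estrogen target GREB1 fell by 7.92. In all of these genes every LR library lay far below every DTP library.

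Whole sets of genes were silent in one of the groups. No read in any LR library was found for 155 of the genes called lower, whose DTP means ran from 3.03 to 158 with a median of 8.38 normalised read counts. The highest of them, STAC2, is a neighbour of ERBB2. In Control the same 155 genes stood at a median of 66.4%, 66.9% and 64.6% of their DTP mean in replicates 1 to 3. In DTEP the medians were 11.1%, 4.06% and 0% in replicates 1, 2 and 3. Conversely, 51 of the genes called higher had no read in any DTP library. Their median was 0% of the LR mean in each Control library, and 86.7%, 93.7% and 107% in DTEP replicates 1 to 3. Of these 51 genes, 49 had a value of at least 1 in all DTEP libraries and 0 had in all Control libraries. The sets were chosen by their LR and DTP values, and the Control and DTEP values are given without a test.

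The lists described from here on hold 688 genes in 29 groups, chosen with earlier results of these data known. A share of members is read against 9.78% called higher and 8.72% called lower among all genes tested. Members that passed the filter through 1 group only had to differ in its direction. In the lists of mitosis, cycle entry, ERK output and luminal factors 2, 3, 2 and 2 members passed through LR alone. In those of estrogen response, ERBB2 amplicon, FOXO targets and aryl hydrocarbon genes 3, 2, 2 and 2 passed through DTP alone. The replication, IGF axis, keratin and junction lists each had 1 member that passed through LR alone. The luminal factor, IGF axis, keratin, stress response, glycolysis, lysosome and BCL2 family lists each had 1 that passed through DTP alone.

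**Figure D2:**
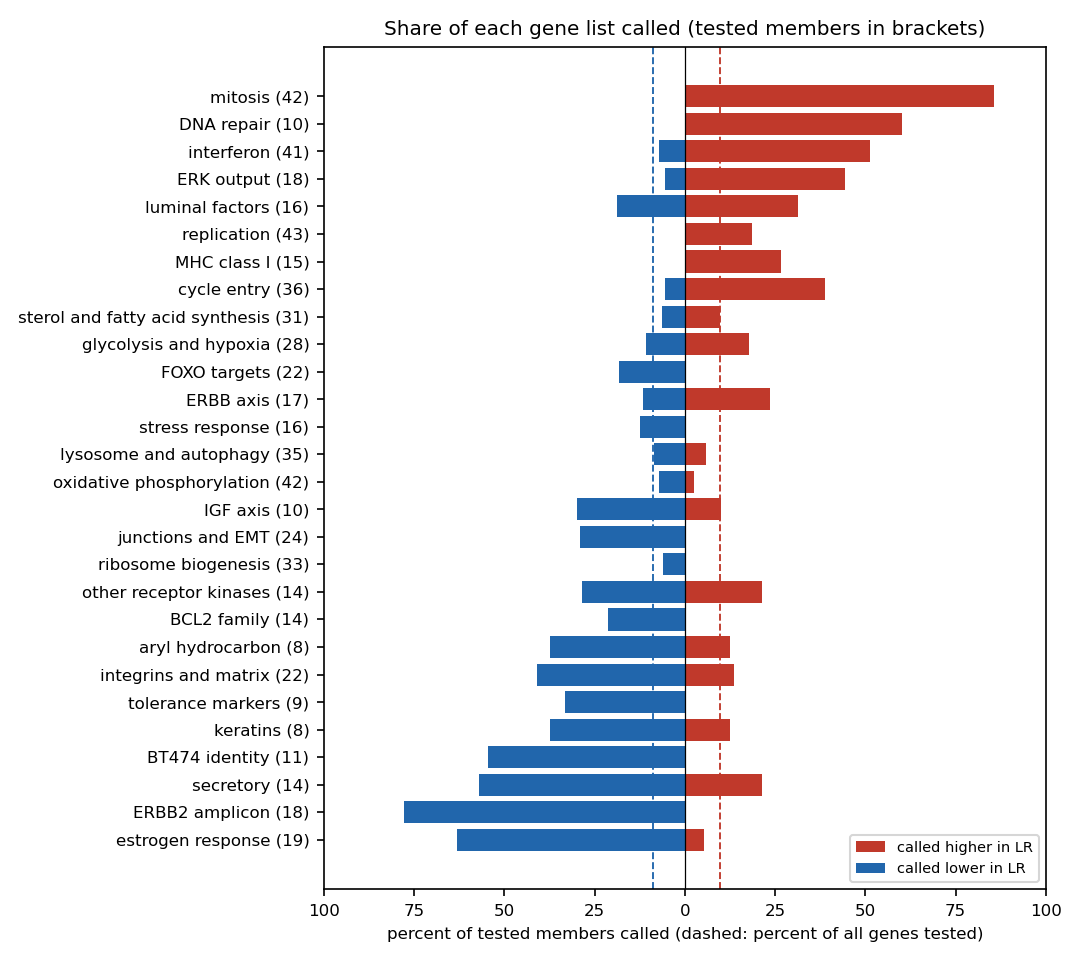
Percent of the tested members of each gene list that were called higher (red, to the right) or lower in LR (blue, to the left), with lists ordered by their median log2 change. Dashed lines mark 9.78% higher and 8.72% lower among all genes tested. The mitosis list has the largest share called higher and the ERBB2 amplicon list the largest share called lower.

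Genes of mitosis were higher in all 3 LR libraries. Of 42 tested, 36 were called higher and 0 lower, 41 were higher past the adjusted p, and the median log2 change was 3.09. MKI67, which codes for the proliferation marker Ki-67, was at 2.19, 2.32 and 3.63 in DTP and at 255, 207 and 413 in LR, a 108-fold difference (log2 change 6.26, SE 0.27, limma adjusted p 5.69e-07). Its lowest LR library was far above its highest DTP library. PLK1, the kinase that drives entry into mitosis, rose from 4.80, 4.10 and 3.46 to 25.4, 48.9 and 41.5. CCNB1, the cyclin of the mitotic kinase CDK1, rose from 9.50, 11.2 and 10.4 to 56.5, 82.4 and 78.2. All 11 genes of the spindle and of cytokinesis rose, from 2.95 for HMMR, a spindle-binding protein, to 4.80 for ASPM, a spindle pole protein. All 10 kinetochore and centromere genes were higher past the adjusted p and 7 were called, with CENPF and CENPE, 2 large kinetochore proteins, at log2 changes of 4.73 and 4.16. The topoisomerase TOP2A, which untangles chromosomes, rose from 8.87, 11.2 and 13.1 to 154, 102 and 219.6. The exception was AURKA, a mitotic kinase, at 54.1, 59.7 and 58.6 in DTP and 28.8, 50.5 and 44.6 in LR, a log2 change of -0.50 that did not pass (limma adjusted p 0.0553).

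Replication genes behaved differently between the LR libraries. Of 43 tested, 8 were called higher and 0 lower, 21 were higher and 1 was lower past the adjusted p, and the median log2 change was 1.06. Every one of the 43 was lowest in LR replicate 2 and highest in LR replicate 3. Of all 13318 genes tested, 4971 were lowest in LR replicate 2 and 4732 highest in LR replicate 3. The median member stood at 1.35, 0.0104 and 1.86 above the DTP mean on the log2 scale in LR replicates 1, 2 and 3, against 2.13, 2.13 and 2.14 in the Control libraries. DTL, which targets the licensing factor CDT1 for destruction, was at 1.25, 1.83 and 2.02 in DTP and at 89.1, 7.97 and 136 in LR. RRM2, a subunit of ribonucleotide reductase, was at 2.30, 4.10 and 2.94 and 123, 16.9 and 180.4. The methylation-reading factor UHRF1 went from 0.104, 0.494 and 0.230 to 18.1, 5.31 and 23.5. Even in LR replicate 2 these 3 genes were above the DTP libraries, though UHRF1 passed the filter through LR alone and had to be higher. MCM2, a subunit of the replicative helicase, was not, with 56.3, 56.3 and 47.7 in DTP and 112, 16.9 and 146 in LR (log2 change 0.30, limma adjusted p 0.71). CDC6, which loads that helicase, also overlapped, at 4.02, 4.74 and 5.47 and 14.7, 4.21 and 24.6 (log2 change 1.16). POLA1, the catalytic subunit of the priming polymerase, was lower in each LR library and passed the adjusted p at -0.91. Without LR replicate 2, 14 of the 43 were called higher and 37 were higher past the adjusted p, with a median of 1.604. Without LR replicate 3 the called genes numbered 5 and the median was 0.66.

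The same order of libraries was seen in 10 genes of recombination and of the Fanconi pathway, which mends damaged forks. All 10 were lowest in LR replicate 2 and highest in LR replicate 3, and 6 were called higher, with a median of 2.71. EXO1, an end-resecting nuclease, was at 1.62, 1.73 and 2.30 in DTP and 46.8, 7.53 and 71.6 in LR. The Fanconi protein FANCI was at 12.8, 11.8 and 15.1 and 131, 53.4 and 185. By contrast the mitosis genes stood at medians of 3.00, 2.86 and 3.57 above the DTP mean in LR replicates 1, 2 and 3, and 34 to 39 of the 42 were called whichever LR library was left out. LR replicate 2 thus held mitotic transcripts at about the level of replicate 1 and replication transcripts near the DTP level. The Control libraries, at mitosis medians of 4.19, 4.17 and 4.16, and the DTEP libraries, at 4.67, 4.72 and 4.20, lay above all 3 LR libraries.

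**Figure D3:**
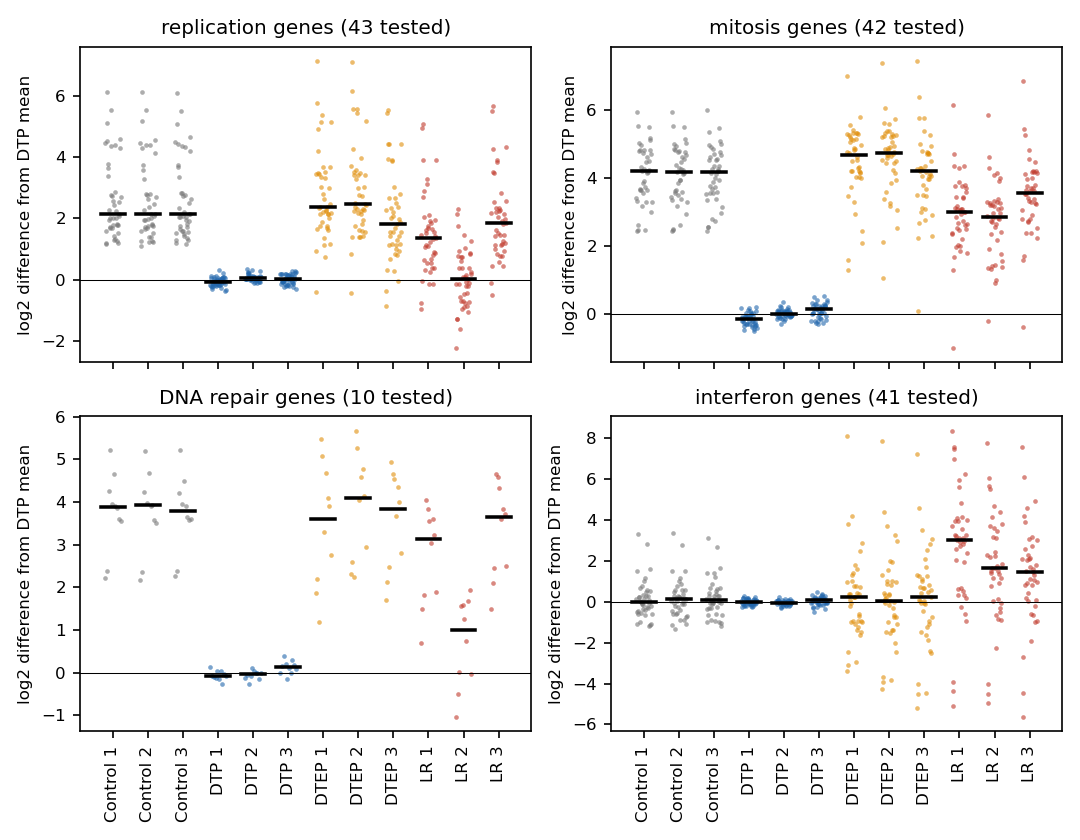
Log2 difference of each member from its DTP mean in the 12 libraries, for the lists of replication, mitosis, DNA repair and interferon genes. Each point is a gene and each black bar the median of the list. Replication and DNA repair genes lie lowest of the LR libraries in replicate 2 (medians 0.0104 and 0.995), mitosis genes are high in all 3, and interferon genes are highest in LR replicate 1 (median 3.00).

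The promoters of these genes show the letters that the factors named above bind. Promoters of 300 bases (250 before and 50 after the start) were taken from RefSeq on GRCh38.p14 for 10365 of the genes tested, and short motifs were searched on both strands. No motif contains another. TTTGAA, the core of the cell cycle homology region (CHR) bound by MuvB, was present in 27 of 37 mitosis promoters (73.0%), in 2.56% of replication promoters and in 9.52% of all. The E2F letters TTTGGCGC or TTTCCCGC were present in 18 of 39 replication promoters (46.2%), in 2.70% of mitosis promoters and in 3.73% of all. The CCAAT box, CCAAT, was present in 75.7% of mitosis, 59.0% of replication and 36.8% of all promoters. A match is a description of letters and not a measured site. Stretches of 6 promoters upstream of the start are shown, in capitals the CHR of 3 mitosis genes and the E2F letters of 3 replication genes, read along the gene.
MKI67 (chr10:128126424-128126492, minus strand): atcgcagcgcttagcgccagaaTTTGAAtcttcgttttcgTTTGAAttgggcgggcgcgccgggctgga
PLK1 (chr16:23678820-23678888, plus strand): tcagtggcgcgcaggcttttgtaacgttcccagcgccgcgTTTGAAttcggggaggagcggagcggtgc
CCNB2 (chr15:59105077-59105145, plus strand): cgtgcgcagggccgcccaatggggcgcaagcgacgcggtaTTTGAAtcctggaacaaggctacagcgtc
MCM6 (chr2:135876486-135876573, minus strand): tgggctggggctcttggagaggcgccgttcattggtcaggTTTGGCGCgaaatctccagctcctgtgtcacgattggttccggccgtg
DTL (chr1:212035700-212035747, plus strand): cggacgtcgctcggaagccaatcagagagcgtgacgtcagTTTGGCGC
UHRF1 (chr19:4909447-4909500, plus strand): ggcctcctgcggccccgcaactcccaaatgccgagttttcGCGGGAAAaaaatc
The last CHR of MKI67, PLK1 and CCNB2 ended 23 bases before the start in all 3. Beside these letters MKI67, PLK1 and CCNB2 changed by 6.26, 2.91 and 3.30 on the log2 scale, and MCM6, DTL and UHRF1 by 1.49, 4.16 and 3.503, of which MCM6 was past the adjusted p but not called.

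The regulators of entry into the cycle were mixed. Of 36 tested, 14 were called higher and 2 lower. FOXM1, which drives the mitotic genes with MuvB, rose from 4.44, 5.92 and 5.07 to 112, 63.9 and 154 (log2 change 4.10, SE 0.30, limma adjusted p 8.82e-06). MYBL2, its partner, rose from 3.18, 2.86 and 2.65 to 73.8, 19.0 and 108. E2F1 rose from 4.12, 3.06 and 2.59 to 54.8, 13.2 and 70.1 and was, like the replication genes, lowest in LR replicate 2. The repressors E2F7 and E2F8 rose by 3.31 and 3.69, whereas E2F4 was slightly lower (-0.47, past the adjusted p). The phosphatases CDC25A and CDC25C, which activate cyclin-dependent kinases, rose by 2.36 and 3.02. Cyclin E2 (CCNE2) rose from 5.22, 6.32 and 8.81 to 54.0, 30.1 and 43.3.

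The brakes on the cycle moved in both directions. CDKN1A, which codes for p21, fell from 44.8, 42.8 and 40.2 to 3.55, 15.9 and 12.2, with LR replicate 1 lowest. Its log2 change of -2.12 was -1.54, and not called, without that library. CDKN1C (p57) was lower past the adjusted p, at 5.38, 6.17 and 5.12 and 1.35, 0.830 and 0.484, a log2 change of -1.82 on these low values. CDKN1B (p27) was higher past the adjusted p by 0.54, with LR replicate 3 (98.7) below the highest DTP value (99.1). CDKN2C (p18) rose from 1.72, 1.48 and 1.84 to 18.8, 15 and 23.8. RB1, the retinoblastoma protein, rose from 14.9, 22.4 and 33.1 to 196, 137 and 153, and its relative RBL1 (p107) rose by 2.93. Of the cyclin-dependent kinases, CDK6 fell from 44.0, 49.6 and 58.2 to 5.41, 4.26 and 6.54 and CDK4 was lower past the adjusted p (log2 change -0.71). Cyclin D1 (CCND1) did not pass, at 206, 222 and 252 and 277, 143 and 327, and its direction depended on the libraries and scaling used.

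Receptors and ligands of the ERBB family did not move together. Of 17 tested genes of that axis, 4 were called higher and 2 lower. ERBB2 (Entrez 2064, chromosome 17, 39688094 to 39728658) fell to between 1555 and 1897, a 4.82-fold difference (log2 change -2.27, SE 0.17, limma adjusted p 8.94e-06). ERBB3, its partner and the kinase-poor receptor of neuregulins, was higher past the adjusted p, from 433, 443 and 488 to 1113, 1028 and 1131. ERBB4 rose from 5.58, 6.96 and 8.70 to 214, 123 and 18.3, with LR replicate 3 far below the other LR libraries but above all DTP libraries. EGFR was low throughout, at 2.66, 2.37 and 4.84 in DTP and 0.338, 0.111 and 0.920 in LR, and lower past the adjusted p. Among the neuregulins, ligands of ERBB3 and ERBB4, NRG3 was the only one that could be tested and rose from 1.62, 2.91 and 2.59 to 49.4, 29.5 and 65.7, while NRG1, NRG2 and NRG4 did not pass the filter. The 4 tested ligands of EGFR (TGFA, AREG, HBEGF and EPGN) were all lower past the adjusted p, none of them called, and all below 10 normalised read counts. EGFR and 2 of these 4 ligands passed the filter through DTP alone and had to be lower.

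Downstream of the receptors, the adaptor GRB2 rose from 167, 164 and 166 to 1196, 1042 and 964, and the docking protein GAB1 rose from 11.5, 13.3 and 17.6 to 112, 123 and 75.6. GRB7, an adaptor that lies next to ERBB2, fell from 1448, 1322 and 1131 to 91.5, 113 and 158. The feedback inhibitors ERRFI1 and LRIG1 were higher past the adjusted p by 1.94 and 1.89, just short of the call.

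Most of the tested inhibitors that ERK induces were higher in LR. Of 18 tested genes of ERK output, 8 were called higher and 1 lower, with a median of 1.77. DUSP6 (Entrez 1848, chromosome 12, 89347235 to 89352501), the cytoplasmic ERK phosphatase, was at 1.72, 2.67 and 2.65 in DTP and 39.7, 30.2 and 68.2 in LR, a 19.6-fold difference (log2 change 3.75, SE 0.30, limma adjusted p 1.40e-05). DUSP5 and DUSP4, the nuclear phosphatases, rose from 5.74, 5.13 and 5.59 to 112, 112 and 105 and from 37.7, 36.8 and 40.8 to 202, 265 and 194. Of 6 Sprouty and SPRED genes, which hold back RAS and RAF, 5 were higher past the adjusted p and 1, SPRED3, was lower (-1.47). The 4 called were higher by 5.97 for SPRED1, 5.51 for SPRY4, 4.54 for SPRED2 and 3.89 for SPRY1. SPRED1 was near 1 in each DTP library and near or above 100 in each LR library, at 130, 97.4 and 135. DUSP1, a phosphatase of the stress kinases, was at 63.8, 44.7 and 55.3 and 97.0, 291 and 35.1 and did not pass (log2 change 0.88). Compared with Control, DUSP6 at a mean of 18.8 lay between the groups, whereas DUSP4 at 402 lay above both. The immediate early gene EGR1 rose from 49.8, 12.6 and 35.9 to 172, 240 and 169, with a wide spread in DTP. MYC, which growth signalling also induces, moved the other way and fell from 289, 269.6 and 266 to 62.0, 35.03 and 116, a log2 change of -2.10 that was -1.68, and not called, without LR replicate 2. SYNJ1, an inositol phosphatase of vesicle traffic, rose from 3.29, 3.26 and 6.91 to 59.0, 53.2 and 45.9.

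**Figure D4:**
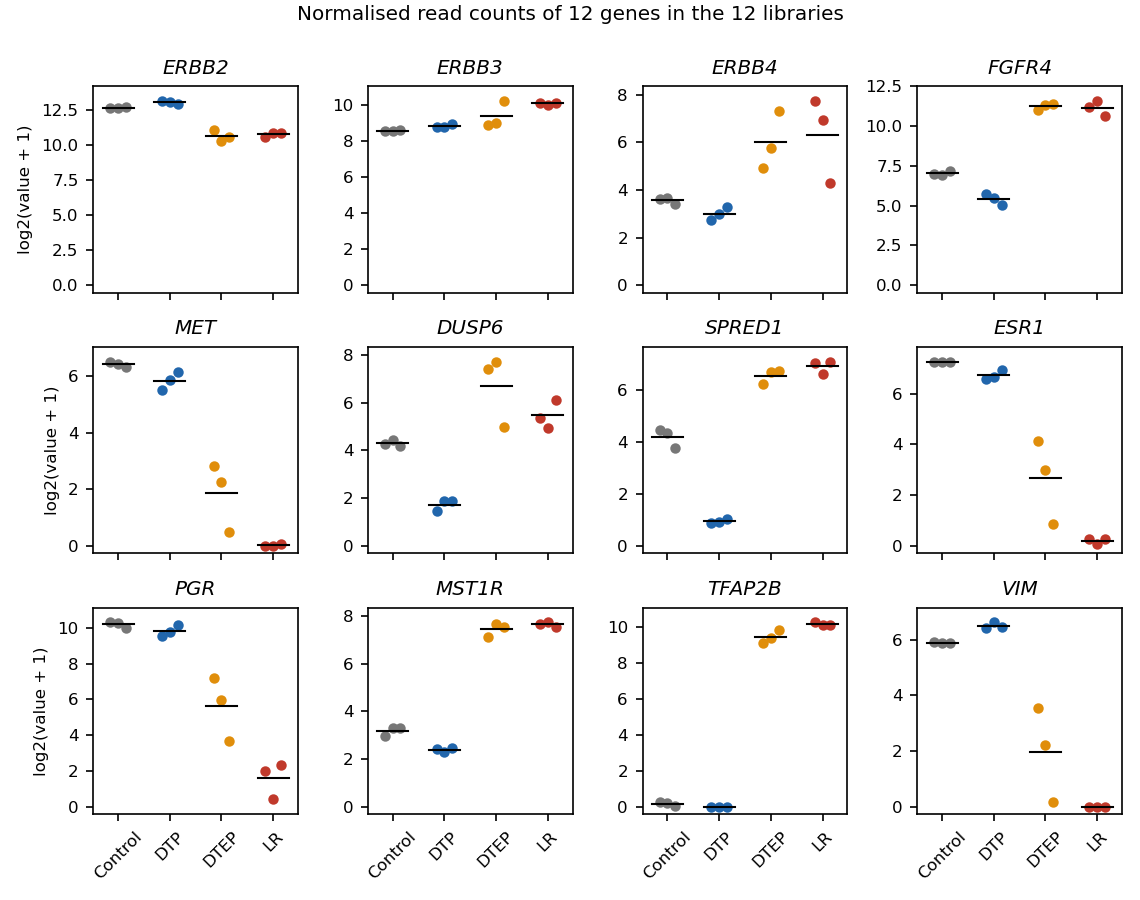
Log2(normalised read count + 1) of 12 genes in each of the 12 libraries, grouped as Control, DTP, DTEP and LR. Points are libraries and bars are group means of 3. LR lies below DTP for ERBB2, MET, ESR1, PGR and VIM and above it for the other 7, and TFAP2B has no read in DTP.

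Targets of the FOXO factors, which are repressed when PI3K and AKT are active, were called in one direction only. Of 22 tested FOXO factors and targets, 0 were called higher and 4 lower, though 7 were higher and 7 lower past the adjusted p. IRS2, an adaptor of the insulin receptors, fell from 14.35, 15.8 and 18.4 to 0.338, 0.277 and 0.0969, with Control at a mean of 1.43. GABARAPL1, an autophagy protein, fell from 130.3, 136 and 134 to 0.254, 0.387 and 0.920. Of the 4 called lower, IRS2 and GABARAPL1 passed the filter through DTP alone and had to be lower. PIK3IP1, an inhibitor of PI3K, fell from 205, 189.7 and 181 to 46.4, 46.4 and 32.4, and TXNIP, which limits glucose uptake, by 2.06 on the log2 scale, a call lost without LR replicate 2 (-1.90) or DTP replicate 3 (-1.99). FOXO1 itself and the cell death gene BCL2L11 (BIM) were higher past the adjusted p, by 1.65 and 1.47.

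In the IGF axis the binding protein IGFBP4 fell from 725, 655 and 547 to 11.2, 16.6 and 13.9. IGFBP3 fell from 1373, 1465 and 1514 to 1.90, 174 and 15.8, with LR libraries that lay far apart (SD 2.97 on the log2 scale, the second largest of all genes). The adaptor IRS4 rose from 0.104, 0.0494 and 0.230 to 35.3, 26.4 and 42.2.

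Other receptor kinases moved in both directions. Of 14 tested, 3 were called higher and 4 lower. FGFR4, a fibroblast growth factor receptor, rose from 52.8, 43.6 and 31.8 to 2341, 3065 and 1559 (log2 change 5.71, limma adjusted p 8.42e-07). MST1R (RON) rose from 4.38, 3.85 and 4.55 to 200.2, 211 and 186, and RET from 14.9, 14.8 and 14.6 to 111, 65.4 and 77.9. MET, the receptor of hepatocyte growth factor and the closest relative of MST1R, went the other way, from 44.5, 56.5 and 68.8 to 0, 0 and 0.0485. MERTK fell from 123, 122 and 142 to 0.0845, 0.111 and 0.291. FGFR3 fell from 6.05, 5.92 and 5.53 to 0.634, 0.387 and 0.436, and the ephrin receptor EPHA4 by 2.04 on the log2 scale, a call lost without LR replicate 2 (-1.55) or DTP replicate 3 (-1.88). Of the 14 tested, 3 passed the filter through DTP alone and 1 through LR alone, and had to differ in that direction.

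Estrogen response genes fell beside the receptors ESR1 and PGR. Of 19 tested, 12 were called lower and 1 higher, the median was -3.47, and the 12 calls were made whichever library was left out. TFF1, a trefoil peptide and a classical target, fell from 337, 312 and 217 to 0.465, 2.99 and 0.727. The chemokine CXCL12 fell from 24.7, 27.2 and 30.2 to no read in any LR library, at least 165-fold. STC2, SIAH2 and RARA fell by 4.49, 3.04 and 2.48 on the log2 scale. Not all members followed. XBP1, a factor of secretory cells, was higher past the adjusted p, from 905, 917 and 932 to 3994, 3751 and 2940, and NRIP1, a corepressor of nuclear receptors, rose from 18.3, 28.9 and 40.2 to 303, 306 and 232. In DTEP replicates 1, 2 and 3 ESR1 was at 16.7, 6.88 and 0.842, between the LR and DTP values. TFF1 was at 49.5, 14.1 and 2.25 in the same libraries, of which DTEP replicate 3 lay within the LR range.

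The other factors of luminal cells were higher more often than lower, with 5 of 16 called higher, 3 lower and a median of 1.46. TRPS1 and EHF, a GATA-type and an ETS-type factor of epithelium, rose by 3.64 and 2.95. ELF5, the factor of the alveolar lineage, fell from 34.3, 36.3 and 42.4 to 0.0423, 0 and 0.0969. It passed the filter through DTP alone and had to be lower. KLF5 and TFAP2C fell by 3.58 and 2.42. Within the AP-2 family TFAP2B thus rose, TFAP2C fell, and TFAP2A was higher past the adjusted p (1.49). TFAP2B is among 2 members of the list that passed the filter through LR alone and had to be higher.

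Secretory products split, with 3 of 14 tested called higher and 8 lower. Of the 14, 7 passed the filter through DTP alone, among them all 4 membrane glycoproteins, and 1 through LR alone, so their direction was set by the filter. The mucins MUC6 and MUC1 fell from 152, 135 and 154 to 0.0423, 0.0553 and 0.194 and from 35.4, 30.1 and 26.9 to 2.20, 2.49 and 1.41. The apocrine products PIP and AZGP1 rose to 15.04, 17.8 and 19.2 and 499, 453 and 443. ALPP, placental alkaline phosphatase, was at 90.3, 83.2 and 72.7 in DTP, with 1 read in all LR libraries together, and its near-identical copies make its counts uncertain. CEACAM6, a surface glycoprotein, fell from 22.9, 27.1 and 27.9 to 0, 0.111 and 0.0485.

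Interferon-stimulated genes were also higher. Of 41 tested, 21 were called higher and 3 lower, 29 were higher and 6 lower past the adjusted p, and the median was 2.04. Of the 41, 11 passed the filter through LR alone and 2, MX2 and IFITM3, through DTP alone, and had to differ in that direction. BST2 went from 0.0522, 0.0494 and 0 to 343, 222 and 197. OAS3, a sensor of double-stranded RNA, rose from 1.04, 1.19 and 1.38 to 418, 148 and 150.1. In these genes DTP lay at or below 1.38 normalised read counts. IFIT1, which binds foreign RNA caps, rose from 0.626, 0.691 and 0.806 to 306, 84.5 and 30.7, and IFI6 from 1.30, 1.28 and 0.345 to 238, 86.0 and 27.6. The interferon regulatory factor IRF7 rose by 3.61, while IRF1 was lower past the adjusted p (-0.92).

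Libraries of LR differed here too, in another order than for replication. Of the 41 genes, 34 were highest in LR replicate 1, against 3667 of all 13318 genes tested. The median member stood at 3.00, 1.66 and 1.48 above the DTP mean in replicates 1, 2 and 3. Without LR replicate 1, 16 were called higher with a median of 1.49. The DTEP libraries, at medians of 0.240, 0.0507 and 0.215, were near DTP, with BST2 as an exception at 282, 242 and 154. Against the rest, MX2, an antiviral GTPase, fell from 49.4, 51.8 and 51.0 to 0.507, 0.664 and 0.0485, IFITM3 from 24.9, 23.1 and 18.6 to 0.127, 0 and 0.0485 and IFI35 by 3.56 on the log2 scale. IFITM2, near-identical in sequence to IFITM3, rose from 0.574, 0.494 and 0.173 to 23.3, 23.6 and 32.9, and reads of the pair may have been assigned to either.

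The letters GAAANNGAA, a core of the interferon-stimulated response element, were found in 23 of 33 promoters of these genes (69.7%) and in 6.16% of all, searched on both strands of the same 300 bases. Upstream stretches of 4 of them follow, 3 of genes that rose and that of IFITM3, which fell, with the letters in capitals on either strand. The copies of BST2 overlap each other.
OAS3 (chr12:112938422-112938473, plus strand): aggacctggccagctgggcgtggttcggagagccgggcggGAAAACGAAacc
IFIT1 (chr10:89392481-89392569, plus strand): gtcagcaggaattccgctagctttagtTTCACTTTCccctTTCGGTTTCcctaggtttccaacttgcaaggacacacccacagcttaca
BST2 (chr19:17405706-17405794, minus strand): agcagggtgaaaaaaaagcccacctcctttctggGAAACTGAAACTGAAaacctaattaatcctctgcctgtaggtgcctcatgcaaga
IFITM3 (chr11:320861-320935, minus strand): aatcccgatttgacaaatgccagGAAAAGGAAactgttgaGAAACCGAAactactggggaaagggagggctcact
The letters were thus present both in OAS3, with a log2 change of 6.58, and in IFITM3, with -4.45.

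Antigen presentation by MHC class I, which interferon also induces, was less uniform, with 4 of 15 tested called higher and 0 lower. B2M, the light chain, was at 113, 122 and 112 in DTP and 641, 393 and 400.2 in LR, a log2 change of 2.002, just past the threshold before rounding. The call of B2M was lost in 7 alternatives: without LR replicate 1 (1.77), DTP replicate 1 (1.985) or DTP replicate 3 (1.982), with both other scalings (1.954 and 1.941), with edgeR (1.98) and with DESeq2 (1.964). The peptidases ERAP1 and ERAP2, neighbours on chromosome 5, rose by 2.31 and 3.90. HLA-E was lower past the adjusted p, from 108, 106 and 92.3 to 40.01, 32.0 and 38.1. HLA genes are polymorphic and resemble each other, so their counts are uncertain.

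Genes around ERBB2 were lower together. Of 18 tested genes of the amplicon list, 14 were called lower and 0 higher, with a median of -3.26, and 13 to 14 were called when any 1 library was left out. Within 1 Mb of the start of ERBB2, 31 of 44 genes tested were called lower and 1, TOP2A, was called higher. Of the 12592 windows of 15 neighbouring genes, the lowest by median was chr17:39173453-39864312, from CACNB1 to IKZF3, with a median of -3.88 and 13 of 15 genes called lower. IKZF3, a lymphoid zinc finger factor, fell from 252, 264 and 282 to 0.0845, 0.111 and 0.388, and PGAP3, a lipid remodelling enzyme, from 1735, 1535 and 1259 to 38.0, 36.3 and 54.9. STARD3, a cholesterol transporter, fell from 958, 857 and 753 to 59.0, 85.6 and 101.3. The fall of ERBB2 itself was smaller than that of 12 of the other 13 genes called lower in the list, PNMT being the exception. MED1, a Mediator subunit on the centromeric side, fell by 2.502, and the kinase gene CDK12 beside it was lower past the adjusted p (log2 change -1.04). The ribosomal protein genes RPL19 and RPL23 in the region fell by 4.71 and 4.40 on the log2 scale. Copy number was not measured here.

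**Figure D5:**
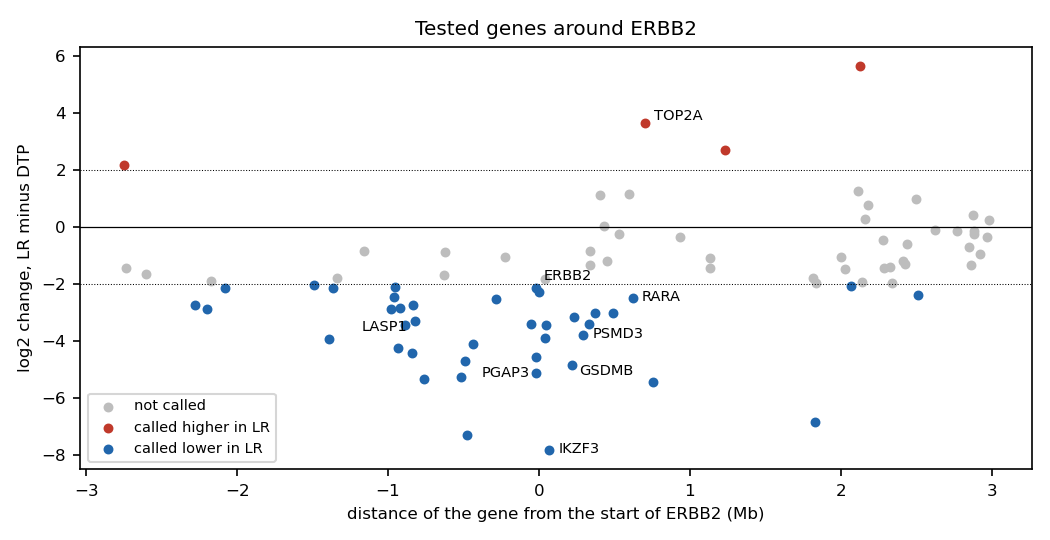
Log2 change, LR minus DTP, of the 89 genes tested within 3 Mb of the start of ERBB2, plotted by their distance from it in Mb. Blue points are the 40 genes called lower and red points the 4 called higher. The called falls are densest from about 1 Mb before to 1 Mb after ERBB2, where TOP2A is the one gene called higher.

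The third lowest window lay close by on the same arm, chr17:38195740-38929381, with a median of -2.82 and 13 of 15 genes called lower, LASP1 and PSMB3 among them. Its genes from MLLT6 to LINC00672 lie within 1 Mb of the start of ERBB2 and were already counted there. The second lowest was chr20:34515602-35454749, with a median of -2.86 and 10 called lower, among them the autophagy gene MAP1LC3A, from 98.1, 82.0 and 58.2 to 0.0423, 0 and 0. The highest windows were chr1:190097658-200860704 (median 2.82, with ASPM and KIF14), chr10:113854661-119033730 (median 2.46, with ABLIM1 and NHLRC2 called higher and GFRA1 called lower) and chr5:93409356-97037513 (median 2.31, with NR2F1, LNPEP and ELL2). Each had 9 of 15 genes called higher. Windows were picked by these values, which are a description. By chromosome, the share called lower was highest on chromosomes 20 (16.5%), 17 (13.9%) and 7 (13.2%), and the share called higher on chromosomes 5 and 15 (16.9% each).

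Genes of cell junctions were split. CDH1, which codes for E-cadherin, fell from 662, 716 and 852 to 73.5, 91.2 and 60.6, and PKP2, a plaque protein of desmosomes, from 22.2, 25.8 and 31.0 to 1.86, 0.720 and 1.41. Vimentin (VIM), a mesenchymal filament, fell from 84.3, 97.9 and 88.2 to no read in any LR library, at least 543-fold, and TWIST1, a mesenchymal factor, from 74.6, 65.0 and 64.8 to no read. Of the 24 tested genes of junctions and of epithelial-mesenchymal transition 0 were called higher and 7 lower, while 9 were higher and 10 lower past the adjusted p. For the 18 junction genes alone those were 7 and 6, with a median of -0.16. VIM and TWIST1 are among 3 members that passed the filter through DTP alone and had to be lower. The splicing factors ESRP1 and ESRP2, which mark epithelium, were higher past the adjusted p by 1.21 and 1.06. The basal keratin KRT15 fell from 172, 162 and 141 to 0.127, 1.16 and 0.145.

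Of 22 integrin and matrix genes, 3, all integrins, were called higher and 9 lower. Of the 22, 6 passed the filter through DTP alone, 5 of them collagens or laminins, and had to be lower. ITGA6, the laminin-binding chain, rose from 8.19, 10.3 and 14.7 to 440.2, 277 and 431. ITGA2 and ITGAV rose by 4.30 and 3.39. Among 14 collagens and laminins 8 were called lower and 0 higher, and 11 were lower and 2 higher past the adjusted p. COL12A1 fell from 704, 768 and 1077 to 6.29, 6.75 and 91.9, with LR replicate 3 apart from the others, and COL6A1 from 19.0, 17.1 and 16.7 to no LR read.

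In lipid metabolism the regulator SREBF1 rose from 31.3, 26.4 and 20.7 to 261, 463 and 273 and the desaturase SCD from 27.9, 27.8 and 32.4 to 346, 1066 and 589.5. The elongase ELOVL6 rose by 2.35. FADS2, another desaturase, fell from 178, 171 and 164 to 11.9, 10.6 and 28.0, and ACSS2, which makes acetyl-CoA, by 2.98. Of 31 tested genes of sterol and fatty acid synthesis 3 were called higher (9.68%) and 2 lower (6.45%), shares no larger than those of all genes. Past the adjusted p 16 of the 31 were higher, against 37.5% of all genes, and the median was 0.73. Of the 31 genes 23 were lowest in LR replicate 1, against 3838 of all 13318 genes tested. The sterol enzyme SQLE was among the 16, at 1.65.

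Ribosome biogenesis genes were lower past the adjusted p more often than higher. Of 33 tested, 0 were called higher and 2 lower, of which 1 was MYC itself and the other NOP16, at -2.07, and no call was left without LR replicate 2 (-1.68 and -1.92). In all, 17 of the 33 were lower past the adjusted p, against 36.1% of all genes, with a median of -0.58. NCL, which codes for nucleolin, was lower past the adjusted p from 1148, 1185 and 1199 to 449, 435 and 568, and DKC1, the pseudouridine synthase, was higher by 1.10. The E-box CACGTG, bound by MYC, was present in 10 of 26 promoters of this list (38.5%) and in 10.1% of all.

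Energy metabolism changed in single genes. Hexokinase HK2 rose from 38.1, 45.9 and 50.2 to 318, 476 and 222, whereas the glucose transporter SLC2A1 fell from 301, 292 and 265 to 34.98, 51.5 and 51.7. Enolase ENO2 rose by 2.38. Among hypoxia targets VEGFA and EGLN3 rose by 2.30 and 2.76 and ADM, a vasodilator peptide, fell from 13.5, 9.62 and 9.44 to 0.211, 0.387 and 0.0969. Of 28 tested genes of glycolysis and hypoxia 5 were called higher and 3 lower. The enzyme P4HA1, which modifies collagen, rose by 2.08 (1.93 without LR replicate 2), and NDRG1 fell by 2.22. Of 42 genes of oxidative phosphorylation 1 was called higher (NDUFS1, 2.14) and 3 lower (7.14%), a share below that of all genes. Past the adjusted p 18 of the 42 were lower, against 36.1% of all genes, and the median was -0.26. NDUFA4 and COX5A, of the respiratory chain, fell by 2.02 and 2.04 on the log2 scale, and neither was called without DTP replicate 1 (-1.97 each), which left 1 of the 3 calls. The ATP synthase subunit ATP5MC1, listed as ATP5G1, fell from 387, 389 and 294 to 33.0, 29.9 and 47.5.

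The lysosome list had 2 of 35 called higher and 3 lower, both shares below those of all genes tested. The lysosomal galactosidase GLB1 rose by 2.06 and cathepsin H (CTSH) fell by 2.64 on the log2 scale. Cathepsin L (CTSL) fell from 112, 105 and 107 to 4.77, 7.36 and 7.56 and the accessory subunit of the proton pump, ATP6AP1, rose from 188, 186 and 158 to 953, 1386 and 792. PSAT1, an enzyme of serine synthesis, fell from 57.4, 65.2 and 73.9 to 0.0423, 0.111 and 0.145, the largest fall of the 16 stress genes, of which 0 were called higher and 2 lower. The other was the stress factor DDIT3 (CHOP), at a log2 change of -2.01. That change was -1.86 to -1.97, and not called, without any 1 of 4 libraries (DTP replicates 1 and 2, LR replicates 1 and 3). PSAT1 passed the filter through DTP alone and had to be lower.

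In the BCL2 family, which sets the threshold for cell death, 0 of 14 tested were called higher and 3 lower, and 10 were lower past the adjusted p. The survival gene BCL2 fell from 43.1, 46.1 and 56.4 to 7.82, 7.53 and 3.97. The death genes BBC3 (PUMA) and BMF fell from 40.8, 28.9 and 20.7 to 4.22, 4.43 and 2.81 and from 214, 212 and 222 to 22.1, 51.2 and 25.3. Of 9 tested markers often tied to drug tolerance, CD44, ALDH1A1 and ALDH1A3 were called lower, by 5.02, 4.16 and 2.59 on the log2 scale, and 0 were called higher. Of the 9, 4 passed the filter through DTP alone and had to be lower, and 4 were higher past the adjusted p. The histone demethylases KDM5A and KDM5B were higher past the adjusted p, by 1.17 and 0.44.

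Genes of the aryl hydrocarbon receptor also split, with 1 of 8 tested called higher and 3 lower. Of the 8, 2 passed the filter through DTP alone, CYP1A1 among them, and had to be lower. CYP1A2, next to CYP1A1, and AHRR, the receptor's repressor, fell by 4.28 and 4.03 on the log2 scale, while CYP1B1 rose from 4.23, 3.80 and 8.06 to 62.3, 41.1 and 58.4. In Control, CYP1A1 was at a mean of 6.97, far below DTP.

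Replicate spread was largest for a few genes. Among LR libraries MGP, a matrix protein, ranged over 2.41, 0.498 and 106 and the peptidase MME over 3.08, 64.1 and 4.12. MME was called higher, but the call was lost without LR replicate 2 (1.20), without any 1 of the DTP libraries and with no filter on low values. Among DTP libraries ZBED6, a transcription factor, ranged over 1.62, 4.99 and 15.03 and the coactivator NCOA2 over 7.41, 11.5 and 26.4. In both DTP genes replicate 3 was highest and still below every LR library.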

How the data were processed

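Stranded poly(A) RNA-seq libraries of BT474 cells were sequenced on an Illumina NovaSeq instrument. Per the study's methods, Rsubread was used both for alignment (hg38) and for counting over RefSeq genes, at its defaults, which ignore strand, so overlapping genes on opposite strands may share reads. The deposited values are a signal, read counts as CPM with a scaling between libraries (normalised read counts). All 199680 values above 0 were whole multiples of 1 read within 1e-06 of a whole number, so the whole reads were recovered, and library sizes come from them.

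The 6 LR and DTP libraries were compared with limma 3.58.1 (R 4.3.3) on log2(value + 1), with a variance trend. Genes reached 1 in 3 or more of the libraries, and p-values were adjusted by Benjamini-Hochberg over 13318 genes. edgeR 4.0.16 (quasi-likelihood) and DESeq2 1.42.0 were run on the recovered reads as alternatives. The fits were tested on simulated data before use. The gene lists, and the comparison itself, were chosen with earlier results of these data known. Genes were named as the 10 largest and 10 smallest called changes without overlap, the 3 largest and 3 smallest members of each list, members with a stated role, a list of key genes, genes of the 3 highest and 3 lowest windows of 15 neighbours, and the 5 most variable genes of each group. NDUFA4, COX5A, GLB1, CTSH, EPHA4, DDIT3, P4HA1, NDRG1, LASP1, PSMB3 and the genes named in the highest windows were picked after their values were seen. Of the 26485 genes, 25356 matched RefSeq on GRCh38.p14, the same build, which gave positions and promoters. Alternatives covered the pseudocount, filter, variance trend, libraries in the fit, scaling, replicate block, tool and fold threshold, and each library was left out in turn. Some genes are not reported here.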

Additional observations from a re-analysis of the deposited data

How the results depend on the processing

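The counts of 1302 genes called higher and 1161 called lower came from 1 of several possible settings. With a log2 threshold of 1 they were 3246 and 2961. edgeR on the recovered reads called 1562 higher and 1777 lower, and DESeq2 1540 and 1784, both on log2 changes without the pseudocount of 1, which shrinks low genes. Pseudocounts of 0.5 and 0.1 gave 1441 and 1596 higher and 1462 and 1721 lower. Among genes with a mean of at least 5 the counts were 1178 and 852. Leaving out each library in turn gave 1208 to 1436 higher and 1153 to 1212 lower. With the replicate number as a block the counts were 1303 and 1161. The labels do not say that the numbers pair the libraries, and same-numbered libraries deviated together with correlations of -0.205, 0.0101 and -0.0224.

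Of 213 genes named, 169 kept their direction and call under all 18 alternatives, 16 called genes lost the call under at least 1 of them and 26 gained one, among them EGFR, AREG and CDKN1C, which edgeR and DESeq2 called lower. Direction was reversed for CCND1 with median-of-ratios scaling (-0.00488) and when 1 library was left out (range -0.18 to 0.41), and for MCM2 when 1 library was left out (-0.27 to 1.25). The cause was not tested. Genes below 0.127 to 0.173 normalised read counts cannot be told from 0.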
